A study of Ipomoea batatas with 12 samples.

Results

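The storage root of sweetpotato (Ipomoea batatas) is covered by a skin, and 251 of the 225111 genes in the deposited table were read at a substantial level in that skin while being absent or nearly absent from the flesh beneath it, in both lines of the study. These genes were selected on their measured levels: a gene was taken as skin-only when its mean was at least 20 CPM (counts per 1000000 counts of the library) in the 3 skin libraries of each line and when at most 3 counts were found over all 6 flesh libraries. Skin of the wild-type line M1-125 (WT) and of its natural mutant (MT) was compared, with flesh of the same lines as the absent tissue; each of these 4 groups had 3 libraries, 12 in all, from field-grown roots 120 days after planting under the treatment labelled normal. The labels name neither the mutated gene nor the skin colour of either line, and they do not say whether a replicate is 1 plant or a pool. Regulators of skin colour are what the study set out to find, by its title.

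The skin of a storage root is a periderm. A cork cambium gives rise to cork cells whose walls are filled with suberin and lignin, and this layer limits water loss and keeps out soil organisms; in coloured cultivars the skin also holds anthocyanin pigments. The flesh inside is storage parenchyma with vascular tissue, where starch and, in orange types, carotenoids accumulate. None of the 251 identifiers was paired with a name: 0 of the 225111 identifiers were found in a table of 175826 annotated sweetpotato genes from the assembly IBA_r1.0. The periderm and anthocyanin genes that would check the tissue labels could therefore not be looked up, and no function is given here to any identifier.

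Identifiers have the form Ibat.Brg_v3 followed by a number, a letter and a running number, and the prefix is left out below. Taking the number for a chromosome, the letter for a haplotype and the running number for a place in the gene order is an assumption, since no coordinates come with the counts. The species is hexaploid, so near-identical copies of a gene can sit on several letters. The handling of reads that match several copies is not given in the sources used here, and the value of any single identifier is uncertain to that extent.

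Absence from flesh was deep by the choice of the rule. The 6 flesh libraries held 108 M counts together (M, 1000000 counts), so that 3 counts over all of them correspond to 0.0277 CPM. The lowest skin mean among the 251 genes was 724 times that level, a ratio that follows from the thresholds. Of the 251 genes, 185 had 0 counts in flesh, 20 had 1, 35 had 2 and 11 had 3. The WT flesh libraries gave 46 counts in 27 of the genes and the MT flesh libraries 77 counts in 45 of them, from totals of 56.2 M and 52.3 M. In 38 of the 46 genes with 2 or 3 flesh counts, all of them came from a single library. Levels in skin and absence from flesh chose these genes and are given as a description. Limits from counts cover counting error only.

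The thresholds cut through a continuous range. Just inside the skin threshold lay 10FG002940, with 21.3 CPM for WT and 20.02 CPM for MT skin, and 12FG010110, with 27.6 and 20.1 CPM. Just outside lay 10DG005790, with 19.98 CPM for WT and 35.4 CPM for MT skin, and 03DG004640, with 19.9 and 23.3 CPM. On the flesh side, 09AG027230 with 307 CPM in WT skin and 10EG005420 with 108 CPM had 3 flesh counts and were kept. With 4 flesh counts, 10BG005060 at 457 CPM and 09FG008530 at 204 CPM in WT skin were not. A further 52 genes with at most 3 flesh counts reached 20 CPM in WT skin only, and 35 did so in MT skin only. The other line was at 10 CPM or more in 39 of the 52 and in 32 of the 35, and under 1 CPM in 1 of the 52 and 0 of the 35.

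Levels differed widely within the set. The 10 highest genes of each line held 32.1% of the set's CPM in WT skin and 29.8% in MT skin. Per gene length, which is the scale on which genes can be compared, the 251 genes ranged from 7.28 to 5214 CPM per kb over the 6 skin libraries, with a median of 36.6. Of these, 44 genes were above 100 CPM per kb and 151 were under 50. They made up 2.96% of the 8487 genes that reached 20 CPM in skin of both lines, and 3 of the 100 highest of those genes per length were skin-only, about the same share. Levels from here on are CPM with the TMM scaling described with the methods, which raises skin values slightly over the CPM of the selection rule.

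The highest was 04DG012830, a gene model of 721 bases, at 5661 CPM per kb in WT and 4767 in MT skin. It stood at 3899, 3929 and 4418 CPM in the WT skin libraries and at 3427, 3352 and 3531 CPM in the MT skin libraries. All 3 WT libraries were above all 3 MT libraries, but the difference did not pass the test (log2 fold change -0.25, SE 0.08, adjusted p = 0.0867, quasi-likelihood test of edgeR, Benjamini-Hochberg adjusted over all genes tested). It did pass with 4 of the 11 other fits, for example with adjusted p = 0.00538 when the 6 skin libraries were fitted alone. The next genes by level per length also carry the number 04.

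Among them, 04EG016140, of only 273 bases, was read at 918, 907 and 935 CPM in WT skin and at 554, 577 and 566 CPM in MT skin. It fell 1.63-fold in the mutant (log2 fold change -0.70, SE 0.05, adjusted p = 2.42e-05 by edgeR), with no overlap between the lines. The gene 04CG011020 was at 699.6, 707 and 854 CPM in WT skin and at 524, 529 and 578 CPM in MT skin, a fall of 1.39-fold (SE of the log2 fold change 0.08, adjusted p = 0.00788 by edgeR). Not all abundant genes were lower in the mutant. For 03AG027190 the WT values of 463, 488 and 489 CPM and the MT values of 474, 501 and 476 CPM overlapped, and the adjusted p was 0.952 by edgeR. The gene 10DG005490 stood at 476, 508 and 491 CPM in WT and at 578, 572 and 542 CPM in MT skin, all MT values above all WT values, with adjusted p = 0.0702 by edgeR.

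**Figure D1:**
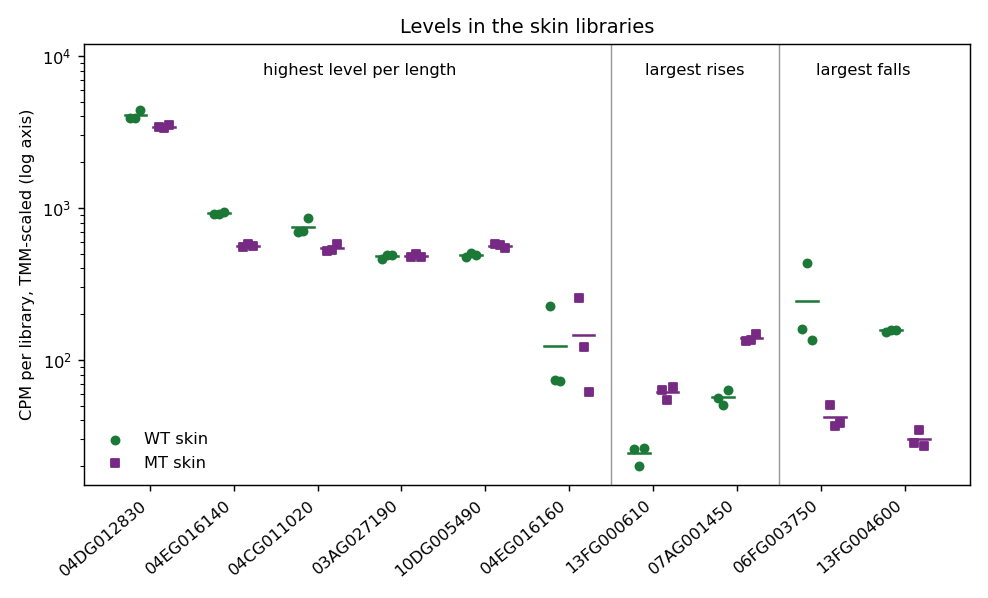
Level of the 6 skin-only genes with the highest level per length and of the 2 largest rises and 2 largest falls in the mutant. The vertical axis is CPM per library with TMM scaling (log axis); circles are the 3 WT skin libraries, squares the 3 MT skin libraries and short lines their means. The level of 04EG016160 spreads from 61.4 to 257 CPM between libraries, while most other genes keep close to their mean.

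The level of 1 abundant gene varied between libraries more than that of any other of the 251. The sixth by level per length, 04EG016160, was at 225, 74.3 and 72.5 CPM in WT skin replicates 1 to 3 and at 257, 121 and 61.4 CPM in MT skin. Replicate 1 was the highest library in each line, and the WT and MT values overlapped. Its spread within a line, as the SD of log2 CPM, was 0.98, the largest of the 251. The SD was 0.67 for 06FG003750, against a median of 0.12 and a smallest value of 0.016 for 09FG020670. The neighbour of 04EG016160 in the table, 04EG016140, had an SD of 0.026 in the same libraries. The median SD of the other genes that reached 20 CPM in skin of both lines was likewise 0.12. Those genes were not matched to the skin-only genes in level, with a median of 25.9 CPM per kb against 36.6.

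The skin-only genes took a smaller share of the mutant's skin transcripts. Together they held 2.87%, 2.82% and 2.88% of all counts in the WT skin libraries and 2.21%, 2.24% and 2.22% in the MT skin libraries, or 2.86% ± 0.0288 against 2.22% ± 0.0194 (SD, n = 3). Every WT value was above every MT value, and the share was 22.2% smaller in MT. Without 04DG012830 the shares were 2.49% ± 0.0239 and 1.92% ± 0.0262. On CPM without TMM scaling, the scale of these shares, 152 of the 251 genes had a lower mean in MT and 99 a higher one, and 10 genes gave 48.2% of the summed fall. With TMM scaling, 142 had a fitted log2 fold change under 0 (56.6%, where 51.5% of all genes tested did). In these bulk samples, fewer cells of a type and less RNA per cell cannot be told apart.

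Gene by gene, falls outnumbered rises. All 251 genes were among the 80351 tested, and 55 of them (21.9%) were lower in MT skin by edgeR's quasi-likelihood test at an adjusted p of 0.05, where 3.21% of all genes tested were lower. Higher in MT skin were 21 (8.37%), where 3.64% of all genes tested were higher. Most of the tested genes are read at far lower levels, where a difference is harder to call. Among the 8236 other genes that reached 20 CPM in skin of both lines, 630 (7.65%) were lower and 1400 higher, the opposite balance. The median log2 fold change was -0.07 for the skin-only genes, 0.09 for these other genes and 0.00 for all genes tested.

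The falls were also larger than the rises. The median fall among the 55 was 1.84-fold, with a range from 1.26-fold to 5.81-fold, and the median rise among the 21 was 1.48-fold, from 1.23-fold to 2.53-fold. At least 2-fold lower were 25 of the 251 (9.96%), against 1.73% of all genes tested and 0.729% of the other genes at this skin level. At least 2-fold higher were 2 (0.797%), against 1.15% and 0.983%. The libraries of the lines did not overlap for 103 genes lower in MT (41.0%, where 11.4% of all genes tested were so) and for 54 higher in MT (21.5%, against 11.2%). Of the other genes at this skin level, 15.4% lay apart as lower and 32.2% as higher in MT. The rule required 20 CPM in both lines, which leaves out larger changes of weakly read genes in either direction.

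Relative to its size, the count of rises moved more between fits than the count of falls. It was 11 without WT skin replicate 2, 11 without MT skin replicate 2 and 36 with DESeq2. The falls numbered 39, 47 and 71 in the same fits. The calls over all genes tested moved too. In these fits 2.24%, 2.72% and 5.84% of them were higher and 1.96%, 2.30% and 4.64% lower, against 3.64% and 3.21% above.

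**Figure D2:**
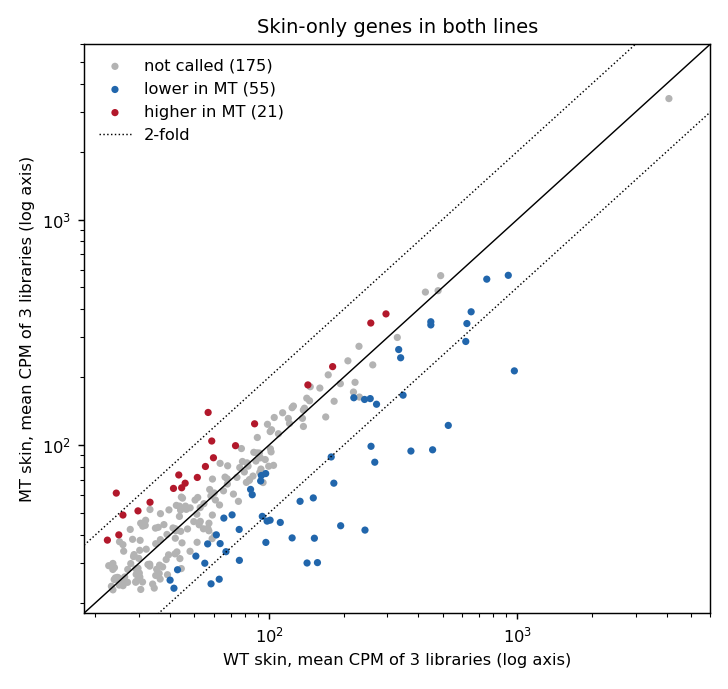
Mean level of each of the 251 skin-only genes in WT skin (horizontal axis) and MT skin (vertical axis), in CPM with TMM scaling on log axes; n = 3 libraries per mean. Blue points are the 55 genes lower in MT and red points the 21 genes higher in MT by edgeR at an adjusted p of 0.05; the solid line marks equal levels and the dotted lines 2-fold differences. Below the lower dotted line lie only blue points, among them 04DG010370 with means of 973 (WT) and 213 CPM (MT).

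**Figure D3:**
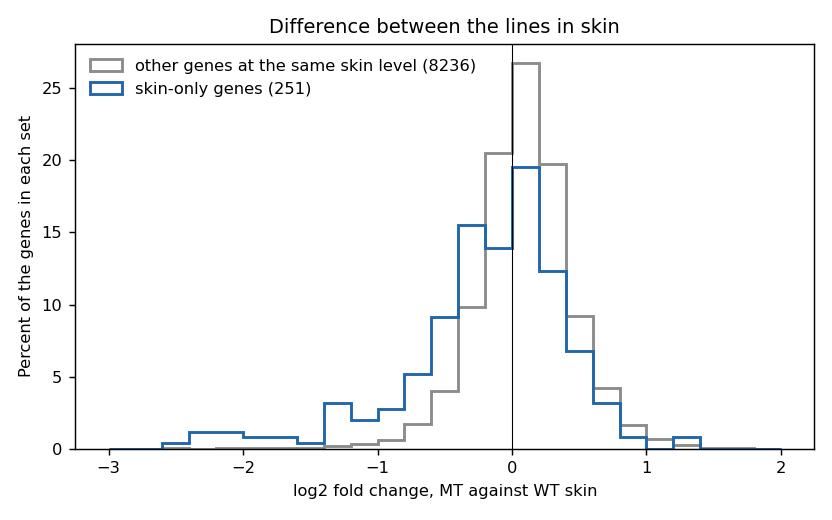
Distribution of the log2 fold change of MT against WT in skin, as percent of the genes in each set, for the 251 skin-only genes and the 8236 other genes with at least 20 CPM in skin of both lines. The medians are -0.07 for the skin-only genes and 0.09 for the others, and the lowest values are -2.54 and -2.82. Falls of at least 2-fold that passed the edgeR test make up 9.96% of the skin-only genes and 0.729% of the others.

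The share of falls differed between classes of flesh count, without a step at 3 counts. Among genes at the skin level it was 23.8% for the 185 genes with 0 flesh counts and 16.7% for the 66 with 1 to 3. It was 26.2% for 65 genes with 4 to 10 flesh counts, 11.5% for 87 with 11 to 30 and 13.5% for 171 with 31 to 100. For 1032 genes with more than 100 and up to 1000 flesh counts it was 6.69%, and for 6881 with more it was 7.43%. The share also moved with level: of the 63 skin-only genes with the lowest skin level 3 fell, and of the 63 with the highest 25 fell. A gene near 20 CPM cannot fall far and stay in the set, and its counts give less precision.

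The skin libraries were also read for 435 genes that stood at 20 CPM or more in flesh of both lines and at least 16-fold less in skin. Whether their counts in skin come from flesh tissue or from skin itself was not tested. These genes were chosen by their level in these same skin libraries, so their low share there follows from the choice. They took between 4.91% and 5.47% of counts in the flesh libraries, 0.113% to 0.117% in WT skin and 0.116% to 0.122% in MT skin, and 10 of them had 0 counts in all skin libraries. In MT skin 66 of the 435 were higher and 39 lower by edgeR, where 3.64% and 3.21% of all genes tested were. Their median log2 fold change was 0.22. The part of these 435 genes in the result was not tested. WT skin libraries held 11.6 M counts on average and MT skin libraries 9.76 M.

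The largest fall was that of 06FG003750, at 159.5, 436 and 135 CPM in WT skin and 50.5, 36.9 and 38.6 CPM in MT skin. No MT library reached a WT library, but WT replicate 2 stood far above the others. The fall was 5.81-fold (log2 fold change -2.54, SE 0.40, adjusted p = 0.00396 by edgeR), and without WT skin replicate 2 the log2 fold change was -1.81. The next, 13FG004600, was tightly read at 154, 159 and 158 CPM in WT and 28.5, 34.7 and 27.3 CPM in MT skin. Every MT library lay far below every WT library (log2 fold change -2.38, SE 0.11, adjusted p = 1.15e-06 by edgeR).

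The largest rises were smaller. The gene 13FG000610, of 231 bases, went from 26.1, 20.2 and 26.5 CPM in WT to 63.0, 54.9 and 65.9 CPM in MT skin. It rose 2.53-fold (log2 fold change 1.34, SE 0.15, adjusted p = 0.000475 by edgeR), with the lines fully apart. The gene 07AG001450 went from 56.5, 50.8 and 63.3 CPM to 134, 136 and 149 CPM, a rise of 2.46-fold (log2 fold change 1.30, SE 0.10, adjusted p = 5.48e-05 by edgeR). Its direct neighbour 07AG001460, also skin-only, was at 51.2, 44.5 and 43.6 CPM in WT and 55.9, 52.5 and 47.2 CPM in MT skin; these values overlapped and the adjusted p was 0.505 by edgeR.

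Falls of at least 3-fold were found for 11 genes (4.38%), against 1.11% of all genes tested and 16 of the 8236 other genes at this skin level. Number 06 held 1 of them, 06FG003750, and number 12 held 12FG002810 and 12CG028000, which lie far apart in running number and fell 3.93-fold and 3.20-fold. The others shared a number with at least 1 more such gene on another letter. The genes named next were picked after their values had been seen. On number 04, the genes 04AG008790, 04CG009010 and 04DG010370 have lengths of 1623, 1657 and 1666 bases, and they fell 3.96-fold, 4.43-fold and 4.56-fold. The last was one of the most abundant of all 251, at 966, 939 and 1015 CPM in WT skin and 212, 212 and 216 CPM in MT skin (SE of the log2 fold change 0.06, adjusted p = 2.11e-08 by edgeR).

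On number 03, the genes 03AG008310, 03BG006750 and 03FG006250, of 1068, 1033 and 1101 bases, fell 3.17-fold, 4.74-fold and 4.31-fold. The most abundant of them, 03FG006250, went from 533, 504 and 546 CPM to 121, 120 and 126 CPM (adjusted p = 7.28e-08 by edgeR). On number 13, 13DG003650 went from 455, 465 and 447 CPM to 96.4, 93.9 and 95.7 CPM, a fall of 4.78-fold (adjusted p = 3.91e-08 by edgeR). It stands beside 13FG004600 described above, and their lengths of 1473 and 1670 bases are less alike. Whether the genes of a set are haplotype copies of a single gene cannot be read from identifiers and lengths, and reads shared between copies would tie their values together.

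Skin-only genes of number 12 fell most often. This number held 25 of the 251 genes, and 17 of them were lower and 1 higher in MT skin, with a median log2 fold change of -0.96. Among all 6161 tested genes numbered 12, 5.84% were lower and 6.90% higher, and among the 606 other genes of number 12 at the skin level 9.24% were lower and 31.7% higher. The falls lay at low running numbers: up to 5000, 15 of 18 skin-only genes were lower and 0 higher, where 12.9% of the 1055 tested genes there were lower. Of the 91 other genes there at the skin level, 24.2% were lower. Above 5000, 2 of 7 were lower and 1 was higher. The limit of 5000 was chosen after the data were seen.

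The abundant genes of this stretch included 12BG004240, at 613, 624 and 624 CPM in WT and 292, 265 and 307 CPM in MT skin, a fall of 2.15-fold (log2 fold change -1.11, SE 0.07, adjusted p = 7.80e-06 by edgeR). Its neighbours 12BG004210 and 12BG004230 fell 2.18-fold and 2.59-fold. On letter E, 12EG004100 went from 613, 703 and 640.0 CPM to 387, 389 and 393 CPM, a fall of 1.67-fold. The single gene of letter D at low running numbers, 12DG002490, did not pass the test, with averages of 51.6 CPM for WT and 58.6 CPM for MT skin. Since all these genes are absent from flesh, the difference between the lines could be followed in skin only. Leaving number 12 out, 38 of 226 skin-only genes (16.8%) were lower and 20 (8.85%) higher, against 7.52% and 15.8% of the 7630 other genes at the skin level outside number 12.

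**Figure D4:**
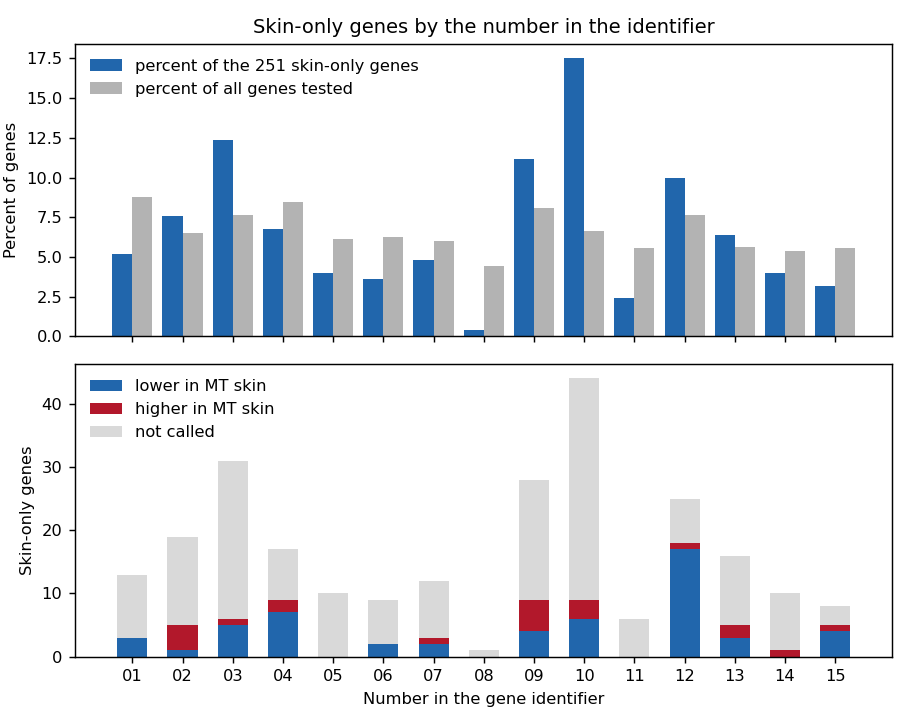
Skin-only genes by the number in their identifier. The upper panel gives the percent of the 251 skin-only genes and of all genes tested that carry each number; number 10 holds 17.5% of the first and 6.64% of the second. The lower panel counts the skin-only genes of each number that were lower, higher or not called in MT skin by edgeR at an adjusted p of 0.05; 17 of the 25 genes of number 12 were lower.

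Number 10 held the most skin-only genes, 44 of 251 (17.5%), although it carries 6.64% of the genes tested. Numbers 03 and 09 followed with 31 and 28 genes (12.4% and 11.2%, against 7.67% and 8.10% of genes tested), while number 08 had 1 gene and number 11 had 6. Letters were more even, from 35 genes on E to 49 on A, and 2 genes lay outside the numbered blocks. Of the 44 genes of number 10, 6 (13.6%) were lower and 3 (6.82%) higher in MT skin, none of them by 2-fold, with a median log2 fold change of -0.08. Of all tested genes numbered 10, 3.24% were lower and 3.47% higher. The number richest in skin-only genes was thus not the number with most falls.

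Within number 10 the genes were gathered. Between running numbers 4600 and 5800, limits chosen after the data were seen, lay 20 skin-only genes: 3 on letter A, 4 on B, 3 on C, 5 on D, 5 on E and 0 on F. This stretch has 213 tested genes, or 0.265% of all, and 29 genes at the skin level, so 20 of the 29 were skin-only. The level differed widely between neighbours. On letter D, 10DG005470 averaged 33.1 CPM in WT skin, 10DG005480 296 CPM, 10DG005490 492 CPM and 10DG005510 26.2 CPM. The log2 fold changes of the 20 ran from -0.65 to 0.64 with a median of 0.02. Of the 20, 1 passed the test as higher, 10DG005480 (1.29-fold, adjusted p = 0.0275 by edgeR), and 1 as lower, 10CG005470, where 3.64% and 3.21% of all genes tested did. Both were named after their values were seen.

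**Figure D5:**
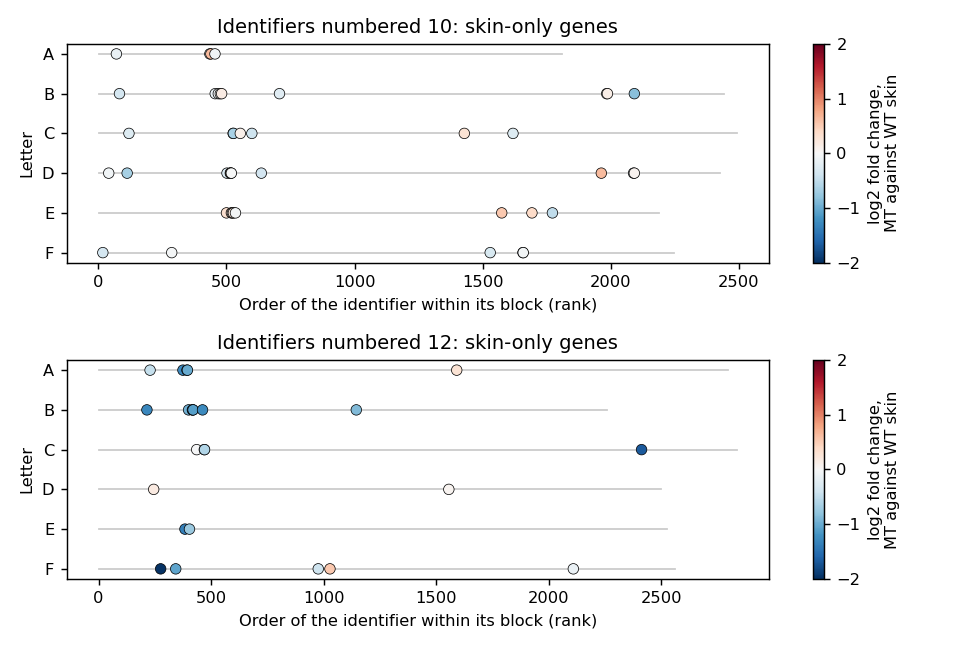
Order of the skin-only genes along identifiers numbered 10 (upper panel) and 12 (lower panel). The horizontal axis is the rank of the identifier within its number and letter, each row is a letter, grey lines span all identifiers of the block, and colour gives the log2 fold change of MT against WT in skin. On letters A to E of number 10 skin-only genes gather near a similar rank with little change; on number 12 most genes at low ranks are lower in MT, with a median log2 fold change of -1.08 up to running number 5000.

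Neighbouring skin-only genes were found elsewhere too. Of the 251, 75 (29.9%) stood within 10 identifiers of another skin-only gene, where 3.59% of the other genes at the skin level did. They formed 29 runs, 17 of 2 genes, 7 of 3 and 5 of 4. The runs of 4 reached from 03AG027140 to 03AG027200, 05DG021930 to 05DG022000, 10DG005470 to 10DG005510, 10EG005380 to 10EG005550 and 13CG024300 to 13CG024400. All members had the same sign of change in 15 of the 29 runs. Most runs hold only 2 genes, where equal signs come easily, and no expected number was worked out. The 445 identifiers directly beside a skin-only gene, skin-only genes left out, were at least 4-fold higher in skin than in flesh in 20.7% of cases, on CPM with 0.5 added. This held for 6.30% of the identifiers beside other genes at the skin level and for 2.88% of all identifiers.

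Among the skin-only genes, 2 pairs shared number and length on different letters. A shared length was about as common for skin-only genes as for others. Of the skin-only genes 72.5%, and of all tested genes with a number 71.3%, had a tested gene of the same number and length on another letter. How often unrelated genes share a length was not worked out, so whether a shared length marks related genes is not known. The genes 03AG027200 and 03EG014230, both of 687 bases, averaged 125 and 102 CPM in WT skin and 149 and 117 CPM in MT skin, and neither passed the test. The genes 10BG023980 and 10DG023030, both of 1672 bases, averaged 41.4 CPM ± 4.51 and 41.2 CPM ± 0.771 in WT skin (SD, n = 3). In MT skin the values of 10BG023980 were 19.3, 28.0 and 22.4 CPM and those of 10DG023030 were 70.7, 62.3 and 59.8 CPM. The first fell 1.79-fold (log2 fold change -0.84, SE 0.17, adjusted p = 0.0181 by edgeR) and the second rose 1.56-fold (0.64, SE 0.11, adjusted p = 0.00676 by edgeR). In 4 of the 6 fits that left out a skin library 10BG023980 no longer passed the test, with adjusted p up to 0.0753 by edgeR and log2 fold changes from -0.81 to -0.71. The difference between the genes was not itself tested.

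Skin-only gene models had a median length of 1761 bases, close to the 1773 of all genes tested and below the 2034 of the other genes at the skin level.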

How the data were processed

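Per the file headers, the authors deposited a raw count for each gene in each library, beside the length of the gene model. The submitters' processing notes name HISAT2 2.0.5, featureCounts and DESeq2 1.40.2 without saying what each was used for. The sources used here give no build, annotation, strand setting or treatment of multiply matching reads. Per the labels' protocols, ribosomal RNA was depleted, polyadenylated RNA selected and NEBNext Ultra libraries sequenced on a NovaSeq. Total counts ran from 8.51 M to 20.3 M per library. Replicates differed by more than sampling noise (chi-square per degree of freedom from 5.82 to 7.81).

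Groups came from sample titles. The 80351 genes kept by filterByExpr (minimum count 10) went into edgeR 4.0.16 (R 4.3.3): TMM scaling, all 4 groups fitted together, quasi-likelihood test of MT against WT in skin, Benjamini-Hochberg adjustment. The script was tested on simulated data. The SE is the absolute log2 fold change over the square root of the F statistic, an approximation. P-values measure only the spread between these samples. Alternatives were library totals, DESeq2 1.42.0, no filter, skin libraries alone, a replicate block, leaving out each skin library, and other thresholds of the selection rule.

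The genes, the rule and the tests were chosen with earlier results of these data known. Named are the 6 highest per length, the 2 largest rises and falls, genes beside each threshold, the longest runs, genes sharing number and length, and the extremes of spread; others were picked after their values were seen. Sequences are not printed, and the planned gene lists were not run, as no source used here ties the identifiers to either.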

Additional observations from a re-analysis of the deposited data

How the results depend on the processing

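Falls outnumbered rises in all 11 other fits and under all 5 other selection rules. The 55 falls and 21 rises became 60 and 15 with library totals and 64 and 25 without the filter. They became 72 and 30 with skin libraries alone and 71 and 36 with DESeq2. Of all genes tested, 3.59% were lower and 3.02% higher with library totals, and 2.40% and 2.45% without the filter. With skin libraries alone 3.09% were lower and 4.17% higher, and with DESeq2 4.64% and 5.84%. Leaving out 1 skin library gave 39 to 47 falls and 11 to 16 rises, where 1.96% to 2.41% of all genes tested were lower and 2.24% to 2.89% higher. The median log2 fold change of the skin-only genes (-0.07) then ran from -0.11 to -0.066. With library totals it was -0.12, where the median of all genes tested was -0.045. The replicate block gave 45 falls and 14 rises, where 2.46% of all genes tested were lower and 2.92% higher. Correlations between libraries were read on deviations of each gene from the mean of its group, not on levels. On these, same-numbered WT and MT skin libraries correlated at -0.0063 to -0.0039 and differently numbered ones at -0.0022 to 0.0066. Such values do not describe how alike the libraries were in level. WT and MT roots are different plants, so these values cannot show whether skin and flesh were paired. Between skin and flesh of WT, the deviations of same-numbered libraries correlated at 0.00023 to 0.0146 and those of differently numbered ones at -0.0128 to 0.0027. In MT these values were 0.0006 to 0.0052 and -0.0042 to 0.0026. Whether the numbers pair skin and flesh was not settled. A skin threshold of 10 CPM gave 414 genes with 37 rises (8.94%) and 78 falls (18.8%). One of 50 CPM gave 108 genes with 10 rises (9.26%) and 28 falls (25.9%). Of all genes tested, 3.64% were higher and 3.21% lower. The share of library counts (2.86% in WT and 2.22% in MT skin) was 3.16% and 2.53% on TMM-scaled library size. On library totals, with 1 skin library left out, it ran from 2.85% to 2.87% in WT and from 2.21% to 2.23% in MT. Falls on number 12 (17) stayed between 16 and 18 in all 11 fits; this count was added after the data were seen. Of 165 refits of 15 named genes, 148 kept direction and call and 7 changed sign, all in genes that had not passed the test. For 03AG027190 the log2 fold change was then -0.033 with library totals and -0.0053 with skin libraries alone, and it ran from -0.015 to 0.028 when 1 skin library was left out. For 04EG016160 it ran from -0.43 without MT skin replicate 1 to 0.998 without WT skin replicate 1. The causes were not tested. Absence from flesh is limited to about 0.0277 CPM by depth.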
